A study of Mus musculus with 2 samples.

Results

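Immediate early and dissociation stress genes were followed across the cell types of *Nf1*-mutant mouse optic nerves. The set held 37 genes of the 32285 in the deposited feature table. It was listed by symbol, with earlier results of these data known. It was made of 29 immediate early genes, in 4 roles, and 8 heat shock genes. All 37 were detected in both libraries.

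The study compared treatments in mice that model the optic pathway glioma of neurofibromatosis type 1, and single-cell RNA sequencing of their optic nerves was part of it. Both libraries carried the genotype NF1-OPG, which the methods describe as a conditional *Nf1* allele over a germline *Nf1* mutation, with Cre driven by the GFAP promoter of glia and their progenitors. All mice were 12 weeks old, and the labels give pools of 10 mice. One library was named C-ON and titled as a control, and the other was named FMC_new; what these names stand for is not given in the sources used here, and no label of genotype, age or treatment differed between them. They were therefore read as 2 replicates of 1 group, without a statistical test, and their values are given side by side. Nerves were dissociated with an enzyme kit, cleared of debris and myelin, and captured in droplets. No undissociated tissue was analysed here, so transcription in the living nerve and transcription during dissociation cannot be told apart.

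Immediate early genes are transcribed within minutes of a stimulus from factors already present in the cell, without new protein synthesis. Their products include the AP-1 factors (Fos and Jun proteins, which bind DNA in pairs), zinc finger and orphan nuclear receptor factors, and proteins that end the signal again, such as phosphatases and mRNA decay factors. Heat shock genes encode chaperones that hold or refold damaged proteins, and many are switched on by the heat shock factor Hsf1. In tissue dissociated by warm enzymes, both groups are known as a response of the cells to the procedure, and microglia are known to be prone to it.

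The C-ON library held 10845 barcodes and 85101211 unique molecular identifiers (UMIs, each standing for 1 captured mRNA molecule), and FMC_new held 21341 barcodes and 129113325 UMIs. After limits on genes, UMIs and mitochondrial share, 8834 and 16818 cells were kept. They fell into 38 clusters, clustered without the 37 genes, of which 32 were named from fixed cell type markers. The names carry "-like", since they rest on markers alone. Of 16 classes, 9 held at least 50 cells in each library and were compared (19505 of 25652 kept cells). Pituitary endocrine-like cells, which are no part of an optic nerve, numbered 1684 in FMC_new and 19 in C-ON. The other classes of FMC_new carried between 12.6 and 158 UMIs per cell of the pituitary hormone gene *Gh*. In the C-ON classes of at least 50 cells, that level was at most 0.00256. The libraries shared 296 barcodes, of which 188 were kept in both and 21 of those stood in the same class.

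Regulatory sequence was available for 31 of the 37 genes, as RefSeq promoter windows of build GRCm38.p6, the build of the mm10 annotation that the counts use. Only the 250 bases before each start were searched, on both strands. A heat shock element of 2 units (letters GAANNTTC) stood in 4 of 6 heat shock windows and in 2 of 25 immediate early windows, against 6.78% of 27025 windows of all genes. A full cAMP response element (letters TGACGTCA) stood in 2 of 25 immediate early windows, those of *Dusp1* and *Btg2*, against 1.62% of all windows. The AP-1 element (letters TGACTCA) stood in none of the 31, against 4.43% of all, and the TATA letters (TATAAA) in 4, against 12.97% of all. The CArG box, which binds serum response factor, stood in the *Zfp36* window alone, against 1.40% of all. A match shows letters only, and no match says only that the letters were not in this window. The windows of 6 genes are shown, with every match in capitals. None of these 6 windows overlaps an annotated exon of its own gene. Of the other windows with a match, those of *Fosl2* and *Zfp36* shared all 250 bases with such an exon. That of *Dnaja1* shared 218 bases, that of *Dusp1* 47 and that of *Gadd45b* 18. *Fos* and *Jun* were taken since both were high in microglia-like, border macrophage-like and tumor-like cells, as described later. *Btg2* was taken for the cAMP response element, and *Hspb1* since it had a fibroblast pattern of its own. The near-identical *Hspa1a* and *Hspa1b* complete the 6, and both count among the 4 heat shock windows with an element.
Fos: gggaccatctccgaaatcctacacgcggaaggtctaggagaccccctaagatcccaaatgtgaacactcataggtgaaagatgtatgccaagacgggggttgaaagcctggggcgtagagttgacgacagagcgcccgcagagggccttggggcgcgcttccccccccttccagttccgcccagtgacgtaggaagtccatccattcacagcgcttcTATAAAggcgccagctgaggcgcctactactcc
Jun: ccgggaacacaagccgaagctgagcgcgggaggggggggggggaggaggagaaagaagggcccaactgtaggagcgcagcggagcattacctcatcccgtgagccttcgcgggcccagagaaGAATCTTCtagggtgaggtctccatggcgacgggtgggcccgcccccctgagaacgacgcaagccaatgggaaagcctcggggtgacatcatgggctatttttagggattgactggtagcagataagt
Btg2: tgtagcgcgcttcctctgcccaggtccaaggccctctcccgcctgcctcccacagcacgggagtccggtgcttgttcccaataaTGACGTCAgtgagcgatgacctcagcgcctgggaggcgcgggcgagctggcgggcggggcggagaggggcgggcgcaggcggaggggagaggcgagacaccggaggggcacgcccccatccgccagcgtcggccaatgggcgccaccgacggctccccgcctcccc
Hspb1: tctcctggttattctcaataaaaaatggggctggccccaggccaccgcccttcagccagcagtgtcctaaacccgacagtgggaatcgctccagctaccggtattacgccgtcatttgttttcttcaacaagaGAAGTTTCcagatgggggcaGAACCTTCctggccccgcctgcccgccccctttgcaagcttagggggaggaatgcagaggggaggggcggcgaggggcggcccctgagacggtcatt
Hspa1a: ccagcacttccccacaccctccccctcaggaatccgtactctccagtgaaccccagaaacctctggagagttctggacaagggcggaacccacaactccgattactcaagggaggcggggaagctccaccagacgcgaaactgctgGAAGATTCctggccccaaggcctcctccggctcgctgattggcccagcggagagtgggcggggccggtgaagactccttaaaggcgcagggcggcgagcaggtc
Hspa1b: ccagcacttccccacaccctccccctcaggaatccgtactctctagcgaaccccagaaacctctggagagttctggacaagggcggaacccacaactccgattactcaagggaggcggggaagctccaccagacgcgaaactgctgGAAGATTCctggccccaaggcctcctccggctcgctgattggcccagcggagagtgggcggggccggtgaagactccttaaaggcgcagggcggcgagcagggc
The windows lie at chr12:85473640-85473889 (plus strand) for *Fos*, chr4:95052223-95052472 (minus) for *Jun*, chr1:134079156-134079405 (minus) for *Btg2*, chr5:135887669-135887918 (plus) for *Hspb1*, chr17:34972157-34972406 (minus) for *Hspa1a* and chr17:34959239-34959488 (minus) for *Hspa1b*. The capitals mark the TATA letters in *Fos* from 33 bases before the start, the cAMP response element in *Btg2* from 166 bases before it, and heat shock elements of 2 units in the others. *Hspb1* held 2 such elements, from 117 and from 97 bases before the start, and *Hspa1a* and *Hspa1b* each held 1, from 104 bases before it. The *Hspa1a* and *Hspa1b* windows were identical at 247 of 250 positions (98.8%). Since these genes are near-identical copies, reads could be split or lost between them, and their separate levels are uncertain.

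The set took a very different share of the RNA in different cells. Microglia-like and border macrophage-like cells, the resident macrophages of nerve tissue and of its borders, carried the most. Oligodendrocyte-like cells, which make myelin, carried the least by the mean of the libraries, although plasma cell-like cells held less in FMC_new (0.541%). In microglia-like cells the 37 genes held 3.66% of all UMIs in C-ON and 3.61% in FMC_new (mean 3.63% ± 0.0407, SD, n = 2 libraries). In border macrophage-like cells they held 3.38% and 3.59% (3.48% ± 0.149, SD, n = 2). In oligodendrocyte-like cells they held 0.511% and 0.634% (0.573% ± 0.0870, SD, n = 2), so that the highest class mean stood 6.34 times above the lowest. The gap between classes was many times that between libraries.

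Between these ends, dendritic cell-like cells (antigen-presenting cells) held 1.63% and 1.62%, C-ON first. Tumor-like cells held 1.35% and 1.65%. This class was named from markers of the oligodendrocyte precursor lineage, so tumor cells and precursors cannot be told apart in it. NK cell-like cells held 1.23% and 1.18%, T cell-like cells 1.16% and 1.12%, and fibroblast-like cells 1.00% and 0.950%. Plasma cell-like cells, which secrete antibody, held 0.619% and 0.541%. Among neighbours in this order, the values of dendritic cell-like and tumor-like cells overlapped between libraries, as did those of plasma cell-like and oligodendrocyte-like cells. Those of microglia-like and border macrophage-like cells did not, although they lay close together, and neither did those of NK cell-like and T cell-like cells.

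The immediate early part alone followed the same order. Its share ran from 3.31% (C-ON) and 3.33% (FMC_new) in microglia-like cells to 0.205% and 0.359% in oligodendrocyte-like cells, an 11.8-fold range of class means. The heat shock part followed another order: it was at 0.348% and 0.274% in microglia-like cells and still at 0.306% and 0.275% in oligodendrocyte-like cells, and only plasma cell-like cells stood clearly apart, at 0.0669% and 0.0533%. In oligodendrocyte-like cells of C-ON the heat shock genes made up 59.8% of the set's UMIs, against 9.51% in microglia-like cells of the same library. The order of the 9 classes was nearly the same in both libraries, with Spearman's rho of 0.967 for the whole set, 0.983 for the immediate early part and 0.917 for the heat shock part. These coefficients describe 9 classes that share their library, so no p was attached.

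**Figure D1:**
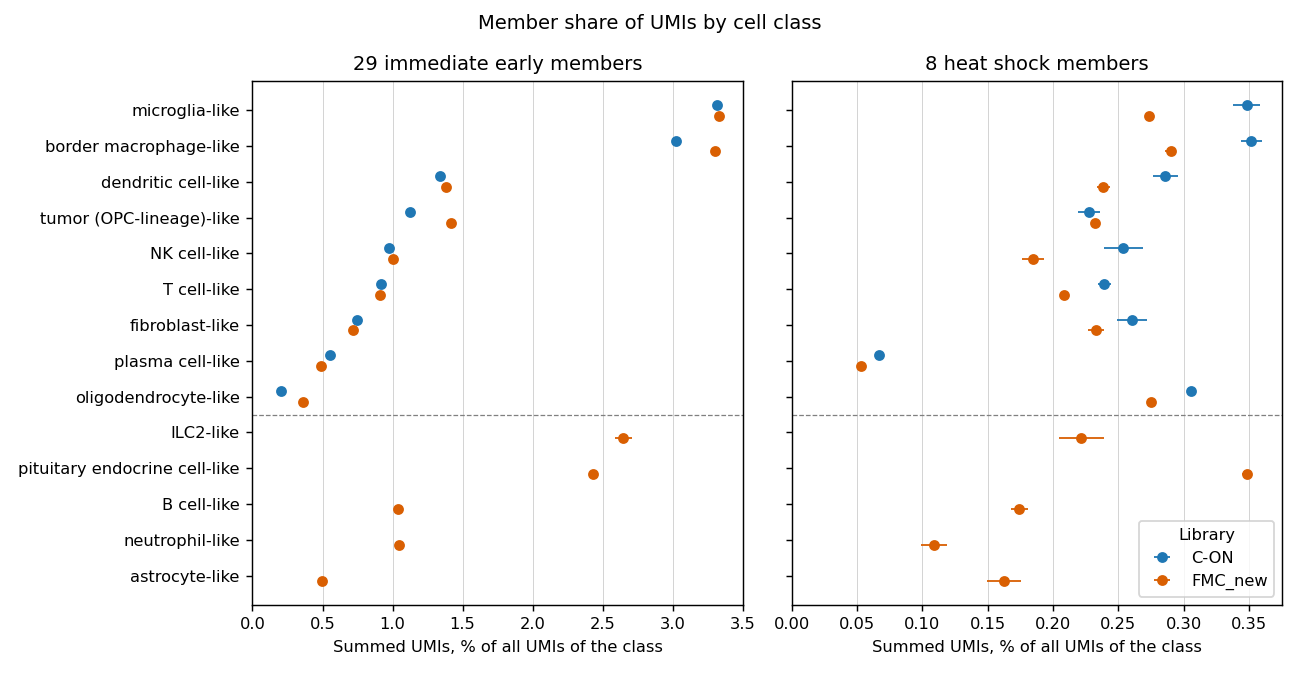
Share of all UMIs of a class held by the 29 immediate early genes (left, x axis in percent) and the 8 heat shock genes (right, x axis in percent), with 1 row for each cell class, 1 color for each library and exact Poisson 95% intervals as bars, which cover counting error only. Classes under the dashed line had at least 50 cells only in FMC_new. Immediate early shares ran from 0.205% to 3.33% in the 9 shared classes, while heat shock shares of all but plasma cell-like cells lay between 0.185% and 0.352%.

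Classes found in numbers only in FMC_new had no second library to set their spread. Their immediate early share was 2.65% in ILC2-like cells (62 cells; a tissue lymphocyte of type 2 immunity), 2.43% in pituitary endocrine-like cells (1684 cells), 1.05% in neutrophil-like cells (131 cells), 1.04% in B cell-like cells (300 cells) and 0.495% in astrocyte-like cells (122 cells). ILC2-like cells were also seen as 27 cells in C-ON, at 2.55%. Their *Junb* level, 8837 CPM, was above that of any other class and library, including microglia-like cells at 4142 CPM.

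Levels of single genes are given as CPM, the UMIs of the gene relative to all UMIs of the class on the usual per-million scale, in C-ON first. The libraries were made from the 5' end, where 1 molecule gives 1 UMI, so CPM was not divided by gene length. Ranges and orders of classes refer to the 9 shared classes unless another class is named. For each gene, a class was called high where its CPM was at least 2 times the median of the 9 classes and at least 10 CPM in both libraries. Microglia-like cells were high for 23 of the 37 genes (62.2%), against 8.08% of all 9884 genes at that level, and border macrophage-like cells for 21 (56.8%), against 7.47%. Dendritic cell-like cells were high for 9 (24.3%; all genes 6.33%). The tumor-like class was high for 7 (18.9%), close to its background of 18.2%. T cell-like and NK cell-like cells were each high for 4 (10.8%; all genes 8.55% and 8.03%), fibroblast-like cells for 3 (8.11%; all genes 13.6%), oligodendrocyte-like cells for 1 (2.70%; all genes 17.5%) and plasma cell-like cells for none (all genes 2.54%). In all, 32 genes were high in some class (86.5%; all genes 51%). The 5 that were high nowhere were *Jund*, *Zfp36l1*, *Gadd45b*, *Hspa8* and *Dnaja1*. Exons of 2 genes overlapped those of small RNA genes on the same strand (*Hspa8* and *Dnaja1*), and exons of 8 overlapped a gene on the other strand; the strand setting of the counting is not given in the sources used here.

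The AP-1 factors held 37.05% of the set's UMIs (mean of classes and libraries), and the Fos and Jun partners were not spread alike. *Fos* was at 3573 and 4078 CPM in microglia-like, 3223 and 4416 CPM in border macrophage-like and 2742 and 3255 CPM in tumor-like cells. Its level was 220.2 and 271 CPM in T cell-like, 304 and 348 CPM in NK cell-like and 134 and 367 CPM in oligodendrocyte-like cells. The 3 high classes did not overlap any other class. *Junb*, by contrast, was high only in microglia-like cells (4000.2 and 4142 CPM) by the rule, because T cell-like (2450.0 and 2557 CPM) and NK cell-like cells (2955 and 2804 CPM) held nearly as much as border macrophage-like cells (2783 and 3599 CPM). T cell-like and NK cell-like cells thus paired a high *Junb* level with low *Fos* and *Jun* levels. *Jun* was at 131 and 91.1 CPM in T cell-like cells, against 2680.4 and 2529 CPM in microglia-like and 1306 and 1695 CPM in tumor-like cells. Other lymphocytes differed in *Fos*, which in FMC_new was at 836 CPM in B cell-like and 1255 CPM in ILC2-like cells.

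*Jund*, the Jun factor that most cells keep at a steady level, ranged only from 593 and 605 CPM in oligodendrocyte-like to 1979 and 1768 CPM in border macrophage-like cells. Plasma cell-like cells held *Fos* (1237 and 954 CPM) and *Jund* (1108 and 828 CPM) with little *Junb* (365 and 378 CPM), and AP-1 factors made up 53.8% and 50.2% of their set, the largest share of any shared class. *Atf3*, a stress-induced partner of the AP-1 family, was at 1420.5 and 1069 CPM in microglia-like and 1494 and 1423 CPM in border macrophage-like cells, and below 30 CPM in T cell-like, NK cell-like and plasma cell-like cells in both libraries. *Fosb* was high in the same macrophage classes, at 507 to 667 CPM. *Fosl2* stood apart with 104 and 117 CPM in T cell-like and 104 and 223 CPM in NK cell-like cells, against 37.7 and 50.1 CPM in microglia-like cells.

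EGR factors, zinc finger proteins induced by growth factors, and NR4A factors, orphan nuclear receptors induced by antigen and by cAMP, split between cell types. *Egr1* followed *Fos*, with 2657 and 2726 CPM in microglia-like, 2037 and 2466 CPM in border macrophage-like, 1368 and 1808 CPM in tumor-like and 686 and 1008 CPM in dendritic cell-like cells, and between 38.1 and 261 CPM in the NK cell-like, T cell-like, plasma cell-like and oligodendrocyte-like classes. *Nr4a1* was highest among the shared classes in dendritic cell-like cells, at 856 and 802 CPM, against 454 and 340.4 CPM in microglia-like cells, and was at 1283 CPM in ILC2-like cells. *Nr4a2* had a pattern unlike that of *Egr1*: it was highest in T cell-like cells, at 371 and 347 CPM, and at 3.84 and 24.6 CPM in microglia-like cells. *Nr4a3* was at 173 to 229.9 CPM in the dendritic cell-like, T cell-like and NK cell-like classes, below 100 CPM in the other shared classes and at 519 CPM in ILC2-like cells. *Egr2* (258 and 194 CPM in border macrophage-like cells) and *Egr3* (151 and 213 CPM in dendritic cell-like cells) were minor members.

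**Figure D2:**
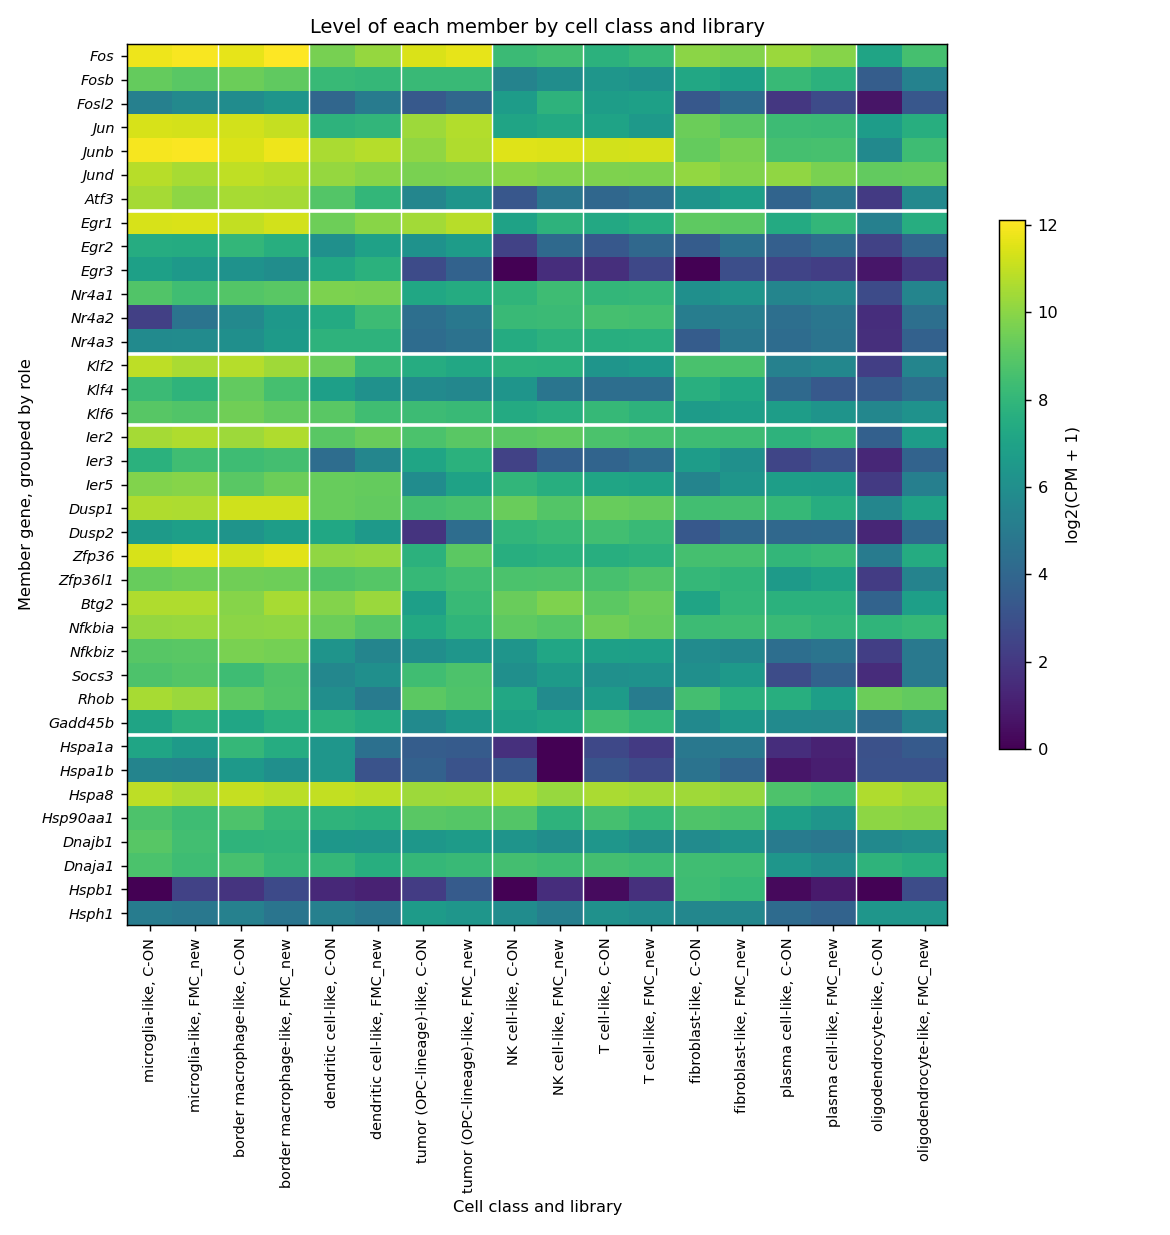
Level of each of the 37 genes (rows, in blocks by role: AP-1 and ATF, EGR and NR4A, KLF, feedback and early response, heat shock) in each cell class and library (columns), as log2(CPM + 1) on the color scale. The microglia-like and border macrophage-like columns are bright through the first 4 blocks, *Junb* is also bright in the NK cell-like and T cell-like columns, and *Hspb1* is bright only in the fibroblast-like columns, at 328 and 279 CPM.

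KLF factors, 3 in number, held 4.66% of the set. *Klf2* was at 1891 and 1526 CPM in microglia-like and 1718 and 1317 CPM in border macrophage-like cells, and at 79.8 and 90.2 CPM in T cell-like cells. *Klf6* was at 709.6 and 593 CPM in border macrophage-like cells and at 48.0 and 70.2 CPM in oligodendrocyte-like cells. *Klf4* was at 592 and 374 CPM in border macrophage-like and 307 and 238 CPM in microglia-like cells. All 3 were higher in C-ON than in FMC_new in both macrophage classes. Their median log2 ratio of FMC_new over C-ON was -0.38 in border macrophage-like and -0.31 in microglia-like cells. All genes also leaned to C-ON there, with medians of -0.10 and -0.11. The share of all genes with this direction in both classes was not counted.

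Feedback and early response genes, 13 in number, held 30.2% of the set. *Zfp36*, whose product destroys AU-rich cytokine mRNAs, was at 2642 and 3197 CPM in microglia-like and 2488 and 3047 CPM in border macrophage-like cells, and between 194 and 534 CPM in the tumor-like, T cell-like, NK cell-like, fibroblast-like and plasma cell-like classes. *Dusp1*, a phosphatase that switches off MAP kinases, was highest in border macrophage-like cells, at 2406 and 2433 CPM. *Btg2*, which slows the cell cycle, was at 1620.4 and 1617 CPM in microglia-like cells and at 536 and 647 CPM in T cell-like cells. *Dusp2*, a phosphatase of lymphocytes, was highest in T cell-like cells, at 342 and 294 CPM. *Rhob*, a small GTPase, was the most abundant member of this role in oligodendrocyte-like cells, at 666 and 581 CPM, below microglia-like cells (1475 and 1269 CPM) and above T cell-like cells (99.8 and 33.0 CPM). *Socs3*, which blocks cytokine receptors, was at 341 and 428 CPM in tumor-like cells, beside 419 and 474 CPM in microglia-like cells.

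The other members of this role were distributed less alike. *Nfkbia*, the inhibitor of NF-kB, was between 162 and 1228 CPM in the 9 shared classes and at 2080.4 CPM in ILC2-like cells. *Nfkbiz* was at 806 and 754 CPM in border macrophage-like cells and at 76.9 and 43.9 CPM in dendritic cell-like cells. *Gadd45b* was highest among the shared classes in T cell-like cells, at 337 and 259.8 CPM, and was at 1629.9 CPM in ILC2-like cells. *Zfp36l1* was between 244 and 717 CPM in 7 of the 9 classes and below 130 CPM in plasma cell-like and oligodendrocyte-like cells. *Ier3* was at 327 and 361 CPM in border macrophage-like cells and below 20 CPM in T cell-like, NK cell-like and plasma cell-like cells. *Ier2* and *Ier5* were highest in macrophage classes, with *Ier2* at 1425 and 1604 CPM and *Ier5* at 909 and 966 CPM in microglia-like cells.

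The heat shock part was mostly constitutive chaperone RNA. *Hspa8*, the Hsc70 chaperone that cells make without stress, was between 1163 and 2089 CPM in 8 of the 9 classes and at 421 and 349.6 CPM in plasma cell-like cells. *Hsp90aa1*, the inducible Hsp90, was highest in oligodendrocyte-like cells, at 1071 and 995 CPM, against 422 and 322 CPM in microglia-like cells. *Dnaja1*, a co-chaperone of Hsc70, was between 189 and 411 CPM in the shared classes other than plasma cell-like cells. The most strictly inducible members were rare. *Hspa1a* was at 264 and 177 CPM in border macrophage-like, 138 and 94.8 CPM in microglia-like and 81.1 and 21.1 CPM in dendritic cell-like cells, and at 2.16 and 0 CPM in NK cell-like cells. *Hspa1b* followed it at 90.6 and 64.9 CPM in border macrophage-like cells. *Dnajb1*, their co-chaperone, was at 500.4 and 352 CPM in microglia-like cells.

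*Hspb1*, a small heat shock protein, was at 328 and 279 CPM in fibroblast-like cells and at no more than 10.2 CPM in the other 8 classes. In FMC_new it was also at 279 CPM in pituitary endocrine-like cells. *Hsph1* was at 98.1 and 81.3 CPM in tumor-like and 80.2 and 81.0 CPM in oligodendrocyte-like cells, against 33.1 and 27.4 CPM in microglia-like cells. Of the 8 heat shock genes, *Hspa1a*, *Hspa1b* and *Dnajb1* had their highest shared class among the macrophages in both libraries, while *Hspa8* and *Dnaja1* had it there in C-ON only. In pituitary endocrine-like cells *Hspa1a* was at 89.7 CPM, *Dnajb1* at 337 CPM and *Fos* at 4525 CPM.

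Over the 18 profiles of 9 classes and 2 libraries, the summed immediate early level correlated most with *Dusp1* among its own members (Pearson's r = 0.96 on log2(CPM + 1)), then *Ier2* and *Klf6* (both 0.94). Among members, *Nr4a2* (0.20) and *Rhob* (0.23) followed it least of the immediate early genes, and *Hsp90aa1* (-0.15), *Hsph1* (-0.26) and *Hspb1* (-0.03) did not follow it. Outside every list, the most alike genes were *Mknk1* (r = 0.947; a kinase downstream of MAP kinases), *Slfn9* (0.933), *Dclre1c* (0.932), *Milr1* (0.930), *Zswim4* (0.928), *Lst1* (0.928), *Ccnl1* (0.926), *Nipa2* (0.924), *Lpin2* (0.922) and *Icam1* (0.921; an adhesion molecule of activated cells). These profiles share 2 libraries and 2 macrophage classes, so the coefficients are descriptions.

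Related genes outside the set were read the same way. Of 34 further immediate early genes, 30 reached the level for the class rule and 23 were high in some class (all genes 51%). Of these 30, 9 were high in border macrophage-like (all genes 7.47%), 8 in NK cell-like (all genes 8.03%), 7 in T cell-like (all genes 8.55%) and 6 in microglia-like cells (all genes 8.08%). The most abundant, *Sgk1*, a kinase induced by glucocorticoids, was highest in oligodendrocyte-like cells, at 2123 and 1895 CPM. *Cebpb*, a myeloid factor, was at 1132 and 1153 CPM in microglia-like cells, and *Mcl1*, a survival factor, at 794 and 694 CPM. Of 21 further heat shock genes, 19 reached the level and 5 were high in some class (all genes 51%). *Ubb* (1015 to 3129 CPM over all classes) and *Hsp90ab1* (378 to 1753 CPM) were high in none.

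Of 14 upstream regulators, 13 reached the level and 7 were high in some class, a share near that of all genes (51%). *Mapk3*, a MAP kinase, was highest in oligodendrocyte-like cells (357 and 299 CPM), and *Crem*, a factor of the cAMP response, in NK cell-like cells (158 and 231 CPM). Of 12 genes of the unfolded protein response, 11 reached the level, 7 were high in some class (all genes 51%), and 5 were high in plasma cell-like cells (all genes 2.54%): *Hsp90b1*, *Xbp1*, *Herpud1*, *Sdf2l1* and *Pdia4*. *Hsp90b1* was at 2432 and 2735 CPM there, and *Herpud1* at 1461 and 798 CPM. *Hspa5*, the endoplasmic reticulum member of the Hsp70 family, was at 981 and 1280.0 CPM there and was not high by the rule.

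Cells of 1 class varied widely. Each cell was thinned to 1000 UMIs, which left out 102 cells of C-ON and 510 of FMC_new that were shallower. In microglia-like cells the thinned immediate early count had a median of 31.5 UMIs in C-ON and 25 in FMC_new, with 10% of cells at 1 or fewer and 10% at 67 or more and 62 or more. In border macrophage-like cells the median was 29 and 31 UMIs, and the lowest 10% ended at 10.2 and 9 UMIs. The median of T cell-like cells was 8 in both libraries. In oligodendrocyte-like cells the median was 2 and 3 UMIs, and 16.4% and 10.6% of the cells had none. Microglia-like cells thus held many cells with high counts and a group of cells near the oligodendrocyte-like level.

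**Figure D3:**
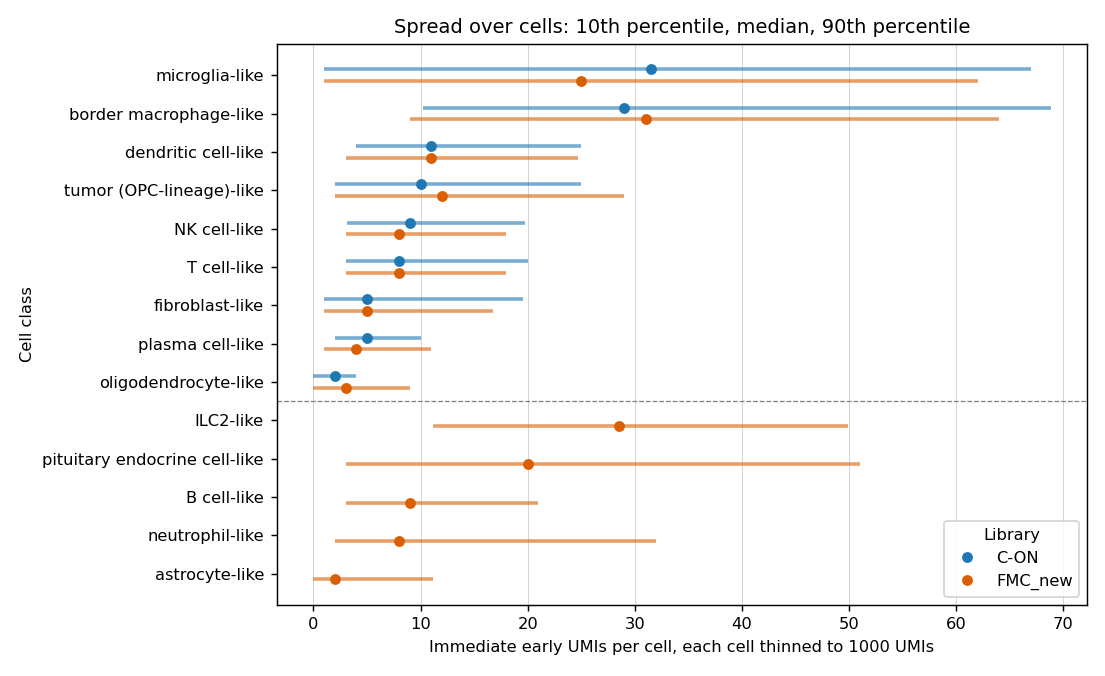
Immediate early UMIs per cell (x axis) after each cell was thinned to 1000 UMIs, for each cell class (rows) and library (color). Points are medians over cells and lines run from the 10th to the 90th percentile of cells, which are not replicates. Microglia-like cells span from 1 to over 60 UMIs, while T cell-like cells of both libraries center on 8.

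The thinned counts were not split by cluster, but the clusters of this class differed in their shares. Microglia-like cells fell into cluster 10, led by *Il1a*, *P2ry12* and *Tmem119*, and cluster 11, led by *Trem2*, *Cxcl13* and complement *C1q* genes. In cluster 10 (152 and 864 cells; median 6002 and 6784 UMIs) immediate early genes held 3.82% and 4.03% of UMIs. In cluster 11 (69 and 847 cells; median 1726 and 1653 UMIs) they held 1.04% and 0.921%. Of the members at 10 CPM or more in C-ON, 31 of 35 were at least 2-fold higher in cluster 10 (all genes 31.1%). In FMC_new 33 of 36 were (all genes 26.3%). No member was 2-fold higher in cluster 11. The share of all genes higher in cluster 11 was not counted, so that count cannot be called particular to the members. *Hspa8* was among those within 2-fold in both libraries. These values are a description, since the clusters were drawn from the same cells. Cluster 11 was shallow, and it held 4713 and 6778 CPM of the myelin gene *Mbp*, against 1800.3 and 1798 CPM in cluster 10; the part of depth and of free myelin RNA in its low share was not tested. Between libraries, cluster 10 had 1 of 36 members 2-fold higher in FMC_new (*Nr4a2*, at 3.76 and 21.4 CPM; all genes 1.69%) and none in C-ON (all genes 4.59%). Cluster 11 had 5 of 36 higher in FMC_new (*Fosl2*, *Nr4a2*, *Nr4a3*, *Zfp36l1* and *Hspa1b*; all genes 9.63%) and 3 in C-ON (*Atf3*, *Klf4* and *Dusp2*; all genes 18.7%). Without the shallow clusters, microglia-like cells stood at 4.20% and 4.34% for the whole set.

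Within the T cell-like class, cluster 6, led by *Foxp3*, *Ctla4* and *Tnfrsf4*, held an immediate early share of 1.13% and 1.14%, and cluster 7, led by *Cd8a*, *Xcl1* and *Crtam*, held 0.725% and 0.818%. Their values did not overlap between libraries, although both were T cells of the same suspensions. Among unnamed clusters, cluster 9, led by *Cd209a* and *Mgl2*, stood between dendritic cell-like and macrophage classes at 2.44% and 2.36%. Of its 36 members at 10 CPM or more, none was 2-fold higher in FMC_new (all genes 1.88%) and 2 were in C-ON (*Hspa1a* and *Hspa1b*; all genes 3.33%). Cluster 1 had oligodendrocyte markers and was led by *Klk6*, *Serpina3n* and *C4b*; it stood at 0.249% and 0.302%, above clusters 0 and 12 and below cluster 28 of the oligodendrocyte-like class. There 6 of 24 members were 2-fold higher in FMC_new (*Fosb*, *Egr1*, *Nr4a1*, *Ier2*, *Zfp36* and *Btg2*; all genes 1.38%) and none in C-ON (all genes 0.753%). Within the pituitary endocrine-like class, cluster 16, led by *Tbx19* and *Crhr1*, held 3.46%, and cluster 22, led by *Ghrhr* and *Pou1f1*, held 1.36%.

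Over all kept cells the 37 genes held 0.823% of UMIs in C-ON and 1.68% in FMC_new, 2 libraries with different mixes of cells. Within classes the libraries lay closer together. The ratio of FMC_new to C-ON in the share of the 37 genes had a geometric mean of 1.02 over the 9 classes, with 3 classes above 1 and a range from 0.875 to 1.24. For the immediate early part the ratio was 1.09, with 6 of 9 classes above 1. For the heat shock part it was 0.847, and 8 of 9 classes were lower in FMC_new, the tumor-like class being the exception at 1.02. *Hsp90aa1* was lower in FMC_new in all 9 classes, and *Hspa8* and *Dnaja1* in 8. *Rhob* was also lower in all 9, and *Fosl2*, *Nr4a3*, *Zfp36* and *Socs3* were higher in all 9. The share of all genes with such a shared direction was not counted, so these counts cannot be called particular to the members. These directions describe 2 libraries that also differ in depth, in their mix of cells and in free pituitary RNA.

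In the mean of the 9 classes, none of the 37 genes was 2-fold apart between the libraries, against 1.24% of 9884 genes higher in FMC_new and 1.45% higher in C-ON; no test stands behind this count. The largest ratios were those of *Fosl2*, at 1.61, and *Hspa1b*, at 0.540. Within border macrophage-like cells no member was 2-fold apart in either direction, of 36 at 10 CPM or more (all genes 2% and 7.35%), and the same held for 30 members in plasma cell-like cells (all genes 2.3% and 7.96%). In T cell-like cells *Rhob* was the 1 gene of 33 that was 2-fold apart, higher in C-ON (all genes 6%), with none higher in FMC_new (all genes 1.67%). In microglia-like cells *Nr4a2* was the 1 gene of 36, higher in FMC_new (all genes 1.77%), with none higher in C-ON (all genes 5.59%).

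In dendritic cell-like cells 2 members were 2-fold higher in FMC_new (*Fosl2* and *Ier3*; all genes 2.46%) and 3 in C-ON (*Klf2*, *Hspa1a* and *Hspa1b*; all genes 2.76%). In NK cell-like cells 3 were higher in each (*Fosl2*, *Atf3* and *Egr2* in FMC_new, *Klf4*, *Rhob* and *Hsp90aa1* in C-ON; all genes 6.49% and 11.8%). The C-ON value rested there on 118 cells. In fibroblast-like cells *Egr2* and *Nr4a3* were higher in FMC_new (all genes 4.35%) and none in C-ON (all genes 8.37%). In dendritic cell-like cells *Hspa1b* was at 80.2 CPM in C-ON and 7.61 CPM in FMC_new.

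**Figure D4:**
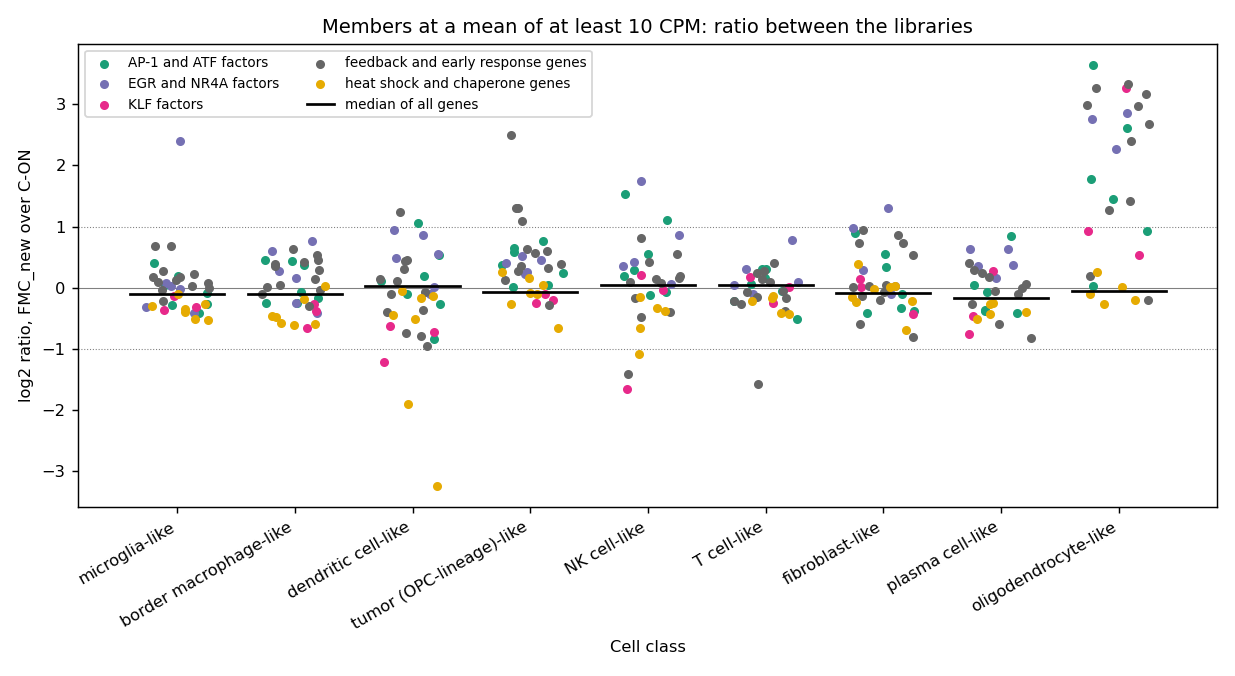
Log2 ratio of FMC_new over C-ON (y axis) for each member at a mean of at least 10 CPM, by cell class (x axis) and role (color); black bars are the median of all genes of the class and dotted lines mark a 2-fold ratio. Points of most classes scatter around the bars, while the oligodendrocyte-like points have a median of 1.61, against -0.06 for all genes.

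In oligodendrocyte-like cells 18 of 28 members (64.3%) were at least 2-fold higher in FMC_new, against 3.77% of 8376 genes, and none was higher in C-ON (all genes 0.215%). *Junb* was at 52.9 and 327 CPM, *Egr1* at 38.1 and 188 CPM, *Zfp36* at 31.6 and 171 CPM and *Btg2* at 13.6 and 115 CPM. None of the 5 heat shock members tested was among them, and their median log2 ratio was -0.11. The immediate early share was 1.75 times higher in FMC_new. Of the 34 further immediate early genes, 11 of 20 tested were also 2-fold higher in FMC_new there, while none of 18 further heat shock genes was.

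The size of the difference varied between the clusters of the class. The immediate early share was higher in FMC_new in each of clusters 0, 2, 12, 13, 14 and 28. In clusters 0, 2, 12 and 13, which held 4485 of 4949 cells in C-ON and 1150 of 1896 in FMC_new, the immediate early share was 0.202% and 0.225%, and 3 of 20 members were 2-fold higher in FMC_new (*Nr4a1*, *Ier2* and *Btg2*; all genes 1.19%) and none in C-ON (all genes 0.255%). In cluster 14 (409 and 372 cells; led by *Prl* and *Gh*) the share was 0.215% and 0.508%. There 26 of 35 members were higher in FMC_new (all genes 11.7%) and 3 in C-ON (*Rhob*, *Hspa8* and *Hsp90aa1*; all genes 32.6%). It held 216836 CPM of *Gh* and 147590 CPM of *Prl* in FMC_new, against 0 of both in C-ON. In cluster 29, led by *Ccl12* and *Ccl2*, the share was 1.34% in 192 cells of FMC_new, and C-ON had 11 such cells. Cluster 28 (44 and 182 cells) stood at 0.379% and 0.497%.

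Macrophage marker RNA in this class also differed between the libraries. The summed level of the 20 microglia and border macrophage markers in the class was 203 CPM in C-ON and 449.6 CPM in FMC_new, and 18 of the 20 were higher in FMC_new, with none at 0 in either. In cluster 29 of FMC_new it was 2488 CPM, with *Lyve1* and *Folr2* at 0, and C-ON had only 11 such cells. In cluster 14 it was 235 and 358 CPM, with 15 of 20 markers higher in FMC_new. There 10 markers were at 0 in C-ON and 4 in FMC_new. In clusters 0, 2, 12 and 13 it was 200.3 and 279 CPM. In those clusters 14 of 20 were higher in FMC_new, and 4 (*Fcrls*, *Cd163*, *Folr2* and *Stab1*) were at 0 in FMC_new. The part of macrophage RNA, of pituitary RNA and of depth in the oligodendrocyte-like difference was not tested. Without clusters with a median under 2500 UMIs, which removes clusters 14 and 29, the immediate early share was 0.204% and 0.256%, a ratio of 1.26, and 8 of 22 members were 2-fold higher in FMC_new, against 2.46% of all genes.

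**Figure D5:**
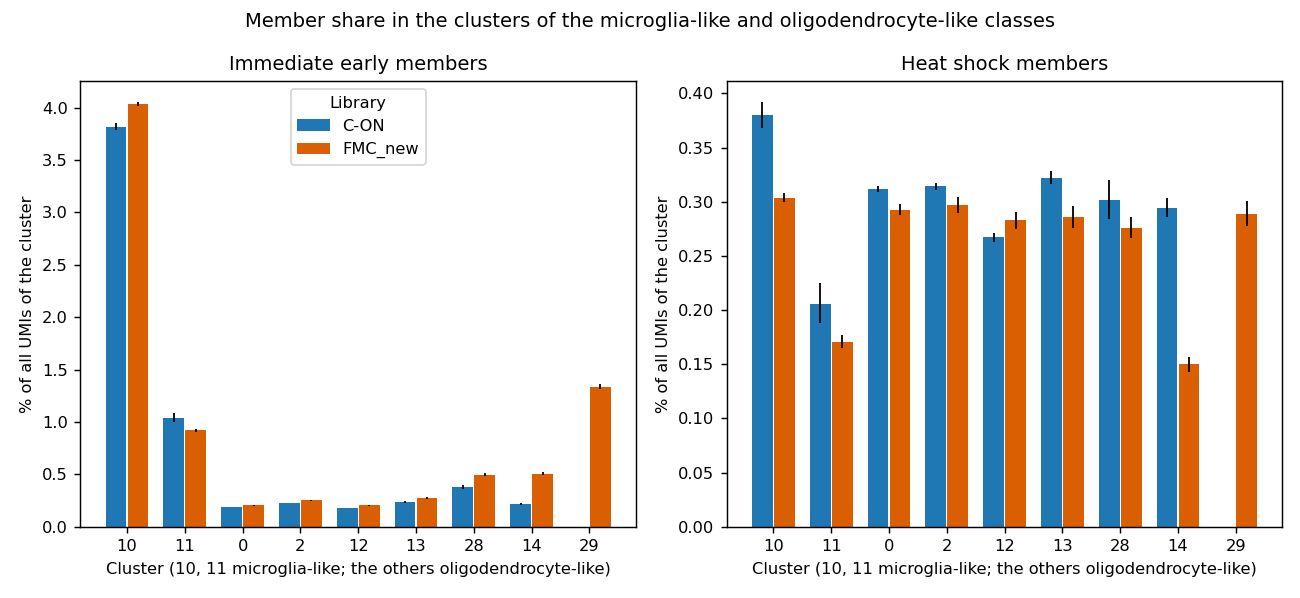
Immediate early (left) and heat shock (right) genes as percent of all UMIs (y axes, from 0) in the clusters of the microglia-like class (10, 11) and of the oligodendrocyte-like class (0, 2, 12, 13, 28, 14, 29), by library (color), with exact Poisson 95% intervals. Cluster 29 has no bar for C-ON, which held 11 cells of it. Clusters 0, 2, 12 and 13 are slightly higher in FMC_new for the immediate early genes, while cluster 14 is at 0.215% and 0.508% for the immediate early genes and at 0.294% and 0.150% for the heat shock genes.

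Tumor-like cells had the next highest ratio of the immediate early share. Of 35 members, 4 were 2-fold higher in FMC_new (*Ier5*, *Dusp2*, *Zfp36* and *Btg2*; all genes 3.45%) and none in C-ON (all genes 2.8%). *Zfp36* was at 216 and 534 CPM and *Btg2* at 114 and 284 CPM. The immediate early share was 1.12% and 1.41%, a ratio of 1.26, and the median log2 ratio of the members was 0.28, against -0.07 for all genes. The ratio was as large in cluster 8 alone (185 and 880 cells; 1.11% and 1.41%), where 1 of 32 members, *Zfp36*, was 2-fold higher in FMC_new (all genes 2.75%) and none in C-ON (all genes 3.32%). Macrophage markers there summed to 318 and 515 CPM, and 15 of 20 were at 0 in C-ON and 1 in FMC_new. Cluster 18, the rest of the class, had 20 cells in C-ON and 495 in FMC_new, with these markers at 1828 and 2119 CPM. In FMC_new it held *Ier5*, *Dusp2*, *Zfp36* and *Btg2* at 318, 54.6, 916 and 583 CPM, against 62.9, 8.08, 416 and 192 CPM in cluster 8. The part of macrophage RNA and of this unequal mix of clusters in the gap was not tested.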

How the data were processed

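Single-cell RNA sequencing was analysed from 2 droplet libraries of dissociated optic nerves. The deposited values were raw UMI counts per gene and barcode, made by the authors with Cell Ranger against mm10-2020-A; the processing notes give version 7.2.0 and the methods another version, and whether intron reads were counted is not given in the sources used here. Barcodes with 500 to 5000 genes, 500 to 20000 UMIs and at most 5% mitochondrial UMIs were kept. They were log-normalized and clustered in Seurat 5.3.0 (R 4.3.3) with 2000 variable genes, without the 37 genes, CCA integration, 30 components and resolution 0.8. No doublets were removed. Clusters were named from fixed marker lists. Counts were summed per class and library with pandas 2.3.3 and scipy 1.17.1 under Python 3.11.15 and given as shares or CPM. Genes were tested against the 2-fold rules at a mean of at least 10 CPM. Both libraries form 1 group, so no p-value was computed. Intervals are 95% and cover counting error only. The 2-fold calls between the libraries were tested on simulated counts. The named genes were the 3 most abundant of each role or list and those 2-fold apart in the same direction in most classes; others were named after their values were seen. The 37 genes and all lists were chosen with earlier results of these data known. Some genes that this rule names are not reported here.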

Additional observations from a re-analysis of the deposited data

Results flagged for a closer look

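Barcodes outside the filters, which no comparison used, also held RNA of the 37 genes, and were listed because data outside the main measurement carried a signal. Barcodes with over 5% mitochondrial UMIs held 0.398% in C-ON (1039 barcodes) and 0.699% in FMC_new (1475 barcodes). Barcodes with under 500 genes held 0.471% (756 barcodes) and 0.521% (2871 barcodes). Barcodes with over 5000 genes or 20000 UMIs held 0.596% (633 barcodes) and 0.970% (1046 barcodes). All 6 shares were below those of the kept cells of the same library, 0.823% in C-ON and 1.68% in FMC_new. The mix of cell types in these barcodes was not compared.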

How the results depend on the processing

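The mean share of the 37 genes over the 9 classes was 1.64%. It was 1.66% with cells thinned to 1000 UMIs, 1.71% with a mitochondrial limit of 2.5%, 1.70% and 1.67% at resolutions of 0.4 and 1.2, 1.73% without the 10% deepest cells, 1.43% as a median over cells, 2.11% with mitochondrial, ribosomal protein, immunoglobulin, *Gh* and *Prl* UMIs left out of the denominator and 1.14% without *Junb*, *Fos* and *Hspa8*; with genes weighted equally it was 7.07 as mean log2(CPM + 1). Without clusters under 2500 UMIs, an alternative chosen after seeing the data, it was 1.70%. The ratio of the libraries, 1.02, lay on either side of 1: it was 0.976 thinned, 1.01 at the 2.5% limit, 1.00 and 0.999 at the 2 resolutions, 1.01 with the 37 genes among the variable features, 0.964 without integration, 1.05 with SCTransform, 1.08 with that smaller denominator, 0.969 without the deepest cells, 0.973 as a median over cells, 1.19 with equal weights and 1.01 without the shallow clusters. The count of genes 2-fold apart, 0, was 1 without integration (*Hspa1b*) and 3 at a fold of 1.5 (*Fosl2*, *Hspa1a* and *Hspa1b*). With 1 library left out, the share ran from 1.62% to 1.65%. Of 114 alternatives of the main results, 90 stayed within the spread of the libraries or 1.5 times the count, 24 moved and none changed direction of a called value. No paired analysis was possible because both libraries belong to 1 group. The design, 2 libraries and no undissociated nerve, limits every difference between them to a description, and NK cell-like, dendritic cell-like and fibroblast-like cells of C-ON rest on under 200 cells each.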
